A study of Mus musculus with 2 samples.

Results

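The Wnt module described here comprises the secreted Wnt ligands, their frizzled (Fzd) and Lrp receptors, the R-spondins (Rspo) with their Lgr receptors, the secreted inhibitors of the Sfrp and Dkk families, the Axin scaffold proteins and the Tcf and Lef transcription factors. Members were every probe that is not a control spot and whose gene name in the array files belongs to one of these families, which gave 83 probes for 52 genes of 56605 probes and 32631 gene names in all. The measurements are 2 one-colour microarrays of total RNA from a mouse embryonic stem cell line with a GFP reporter at the neural gene Sox1, collected at day 5 of neural differentiation. The wild type array (WT) holds unmodified cells of that line, and the knockout array holds cells of the same line and day labelled KO-Linc1548, named for a long intergenic non-coding RNA. Both cultures grew as re-aggregated floating cells in medium with serum replacement, without an added inducer in the labels. How the knockout was made, and whether it is a single clone, is not given in the sources used here.

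Wnt proteins are lipid-modified ligands that bind a frizzled receptor together with Lrp5 or Lrp6. In the canonical branch this stops the Axin-based destruction complex from degrading beta-catenin, which then enters the nucleus and acts through the Tcf and Lef factors on DNA. A second, non-canonical branch runs through polarity proteins. R-spondins, bound to Lgr receptors, keep frizzled receptors at the cell surface, while Sfrp proteins bind the ligands and Dkk1 blocks Lrp5 and Lrp6. In the early embryo canonical Wnt signalling supports the primitive streak and posterior fates, and later Wnt genes pattern the dorsal neural tube and the midbrain.

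Each group has 1 array, so the differences have no replicate check, no test was possible and no p-value is given; the number of arrays limits the precision. Signals are Agilent processed intensities scaled so that the 75th percentile of probes is 751 on both arrays, and every log2 difference is the knockout array minus the wild type array. A probe counts as measured where it lay well above background on both arrays; the lowest scaled signal called well above background was 21.3 on the wild type array against 30.5 in the knockout. A gene takes the median of its measured probes, and the limit used for a call is 2-fold. Repeat spots of the same probe give an SD of 0.10 for a log2 difference, which is error within arrays and not between cultures. Slide and scan were shared by the arrays, whereas the culture and the position on the slide each differ with the group and cannot be told apart from it. No probe names Linc1548 (0 probes), so the targeted RNA was not read. Marker genes of the labelled stage were present: all 12 neural progenitor markers listed, among them Sox1 (scaled signal 2474 on the wild type array against 442 in the knockout), were measured on both arrays.

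At day 5 the knockout array had lower signals for the ligand Wnt7a, the inhibitors Sfrp1 and Sfrp2, 4 frizzled receptors and Tcf7l2, and higher signals for Lef1, Tcf7, the ligand Wnt8a, the inhibitor Sfrp4 and the R-spondins Rspo1 and Rspo3. Of the 52 genes, 40 were measured on both arrays, 1 was measured on the wild type array alone, 1 on the knockout array alone, and 10 on neither. Together 17 of the 40 differed by 2-fold or more in either direction, beside 20.3% of all gene names. Of the 40, 11 (27.5%) were lower by 2-fold or more in the knockout, beside 8.82% of all 18622 gene names measured, and 6 (15.0%) were higher by that much, beside 11.5% of all. Centring on spike-in controls changed the split to 14 lower and 4 higher, where 15.7% of all genes were lower and 7.52% higher. The median of the 40 was −0.29 and that of all gene names was 0.10, a gap of −0.39; over all settings run the gap lay between −0.51 and −0.24. The share of higher genes was thus near the background, while the share of lower genes lay above it. Within the families the direction was not shared: ligands, R-spondins with Lgr genes, inhibitors and Tcf and Lef factors each held members past 2-fold in both directions.

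**Figure D1:**
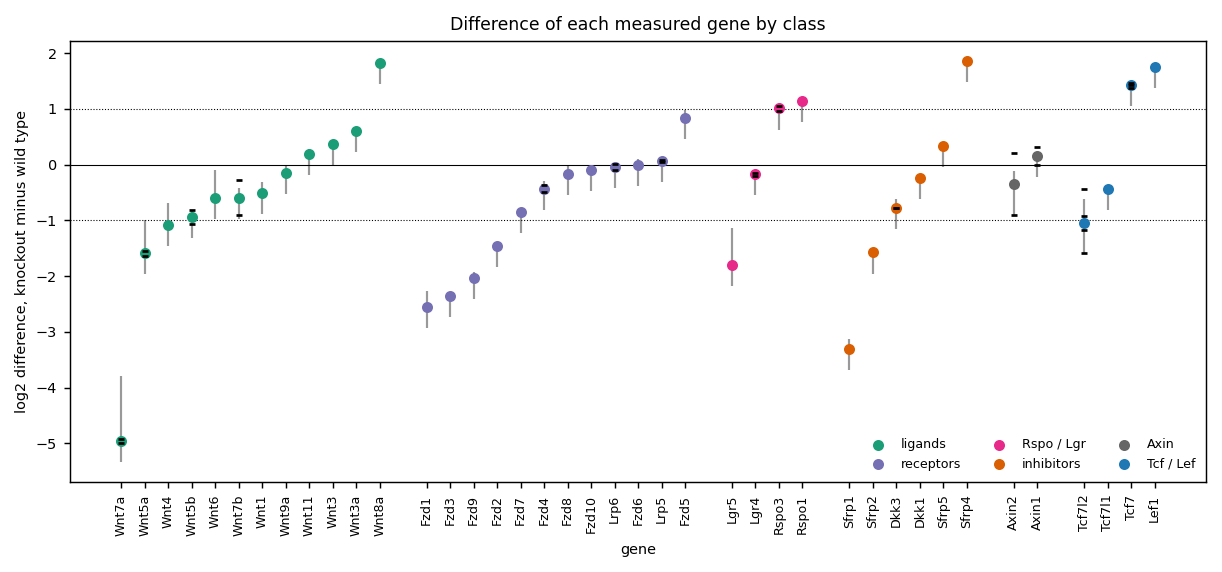
Log2 difference (knockout minus wild type, vertical axis) of each of the 40 measured genes, grouped by class on the horizontal axis; the dot is the reported value, black dashes are single probes where a gene has several, grey lines span the values over all settings run, and dotted lines mark 2-fold. Wnt7a lies lowest at −4.95 and Sfrp4 highest at 1.86, and the grey lines of Wnt11, Wnt3, Sfrp5, Axin1, Lrp5, Lrp6 and Fzd6 reach across 0.

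**Figure D2:**
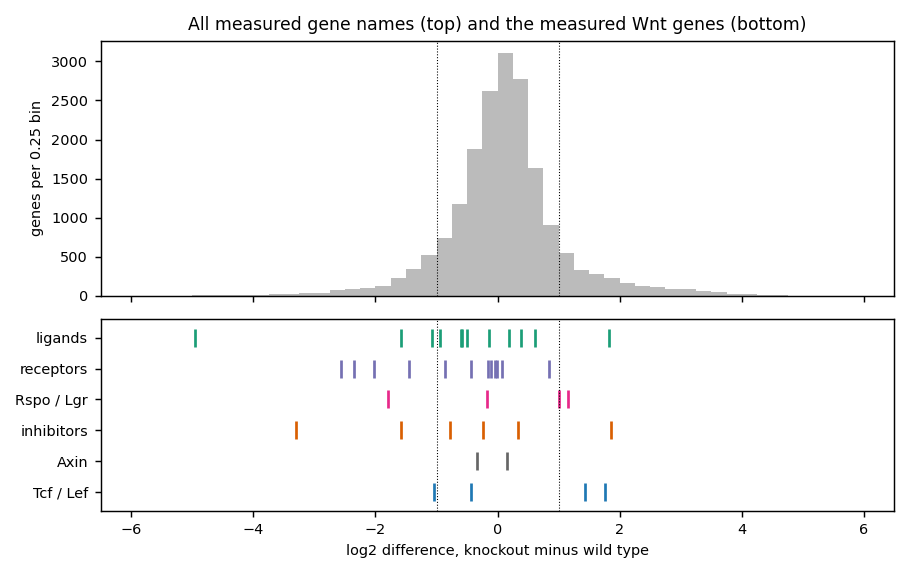
Number of genes per bin of log2 difference for all 18622 measured gene names (top), and the measured Wnt genes by class as ticks on the same axis (bottom), with dotted lines at 2-fold. Ticks left of the lower limit number 11 and ticks right of the upper limit number 6.

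Upstream sequences are printed for 3 of the lower and 2 of the higher genes past 2-fold, from different classes, since these genes carry the differences described here. They are the 250 bases before the annotated start (the outermost start where there are several), 5′ to 3′ on the strand of the gene, from RefSeq on GRCm38.p6: Wnt7a chr6:91411354-91411603 (minus strand), Fzd1 chr5:4758217-4758466 (minus), Sfrp2 chr3:83766071-83766320 (plus), Lef1 chr3:131110047-131110296 (plus) and Rspo1 chr4:124986180-124986429 (plus). Capitals mark a match to one of the strings searched.
Wnt7a: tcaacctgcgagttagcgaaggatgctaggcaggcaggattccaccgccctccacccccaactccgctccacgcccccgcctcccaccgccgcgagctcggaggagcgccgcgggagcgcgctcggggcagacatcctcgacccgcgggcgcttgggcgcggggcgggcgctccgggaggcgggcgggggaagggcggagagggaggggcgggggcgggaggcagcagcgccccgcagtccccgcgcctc
Fzd1: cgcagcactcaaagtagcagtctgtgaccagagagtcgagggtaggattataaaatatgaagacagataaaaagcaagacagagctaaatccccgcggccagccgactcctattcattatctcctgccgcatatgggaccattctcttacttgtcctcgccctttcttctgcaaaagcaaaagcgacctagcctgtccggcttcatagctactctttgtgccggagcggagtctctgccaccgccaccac
Sfrp2: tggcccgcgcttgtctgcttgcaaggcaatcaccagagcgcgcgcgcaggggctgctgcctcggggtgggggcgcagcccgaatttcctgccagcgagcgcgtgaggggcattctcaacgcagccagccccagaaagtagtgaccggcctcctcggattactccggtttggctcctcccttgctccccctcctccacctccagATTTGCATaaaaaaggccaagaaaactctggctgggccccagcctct
Lef1: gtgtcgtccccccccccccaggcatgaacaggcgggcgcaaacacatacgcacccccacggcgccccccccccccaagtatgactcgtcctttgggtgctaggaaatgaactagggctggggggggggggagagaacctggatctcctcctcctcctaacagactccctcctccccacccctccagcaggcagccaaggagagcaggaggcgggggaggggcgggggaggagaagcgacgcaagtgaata
Rspo1: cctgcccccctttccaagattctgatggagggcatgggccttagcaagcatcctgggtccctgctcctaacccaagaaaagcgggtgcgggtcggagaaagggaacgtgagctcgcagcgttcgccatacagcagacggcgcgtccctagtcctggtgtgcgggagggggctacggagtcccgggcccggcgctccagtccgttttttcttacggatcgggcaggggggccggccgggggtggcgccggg

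The strings searched on both strands were CTTTGAT and CTTTGAA, forms of the Tcf and Lef site, CATTGTT, a form of the SOX site, and the octamer ATGCAAAT read by POU factors such as OCT6; none of them contains another. The series title names OCT6 and SOX2, which is why the last 2 were included. Promoter sequences were found for 34 of the 52 genes, in 42 windows. The octamer occurred in the Sfrp2 window 47 bases before the start and in that of Lgr4, 2 of 42 windows against 1.60% of all 32851 windows. CTTTGAT was in windows of Wnt5b and Wnt11 (2 of 42, against 3.21% of all), CTTTGAA in that of Dkk1 (1 of 42, against 4.46%) and CATTGTT in those of Lgr6 and Tcf7l2 (2 of 42, against 3.29%). The other 4 printed windows held none of the strings, and neither a match nor its absence says whether a factor binds there. The Wnt windows were GC-rich, with a median of 66.8% G or C against 52.4% over all windows; that of Wnt7a reached 77.6% and that of Fzd1 51.2%.

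Among the 19 Wnt ligands, 12 were measured on both arrays, of which 3 were lower and 1 higher by 2-fold or more in the knockout. Among all gene names, 8.82% were lower and 11.5% higher by that much. The ligand median was −0.55, or 0.08 without the filter on dim probes. Wnt7a, a ligand of the neural tube, had the largest difference of the module. Its probes read 1210 and 3076 on the wild type array and 39.9 and 96.9 on the knockout array, which is 31.0-fold lower, and 0.021% of all measured gene names lay lower still. The lower of these knockout signals lay close to the lowest signal called above background there, and with normexp background correction the log2 difference of −4.95 became −3.79. The Wnt7a probes lie at chr6:91314080-91314139 and chr6:91313975-91314031 on mouse build mm9, minus strand; whether they lie in coding or untranslated sequence was not annotated here.

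Wnt5a, a ligand of the polarity branch, was 3.01-fold lower, with probes at 483 against 155 and 167 against 57.2 (wild type against knockout). Wnt4, expressed in floor plate and kidney among other tissues, read 298 on the wild type array against 141 in the knockout, 2.11-fold lower. Under normexp correction both fell short of 2-fold, with log2 differences of −0.98 for Wnt5a and −0.70 for Wnt4. Wnt5b, the near relative of Wnt5a, lay just inside the limit at −0.94 and passed it with spike-in centring (−1.32) and median centring (−1.03). Wnt5a, Wnt5b and Wnt4 thus lay on the same side of 0 in every setting run.

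Wnt8a, a ligand of the posterior epiblast and primitive streak, was the ligand that was higher past 2-fold: it read 304 on the wild type array against 1077 in the knockout, 3.54-fold higher. Wnt3 and Wnt3a, which act in the primitive streak and tail bud, differed by less. Wnt3 read 111 against 144 in the knockout, a log2 difference of 0.38 that vanished with spike-in centring (−0.0003). Wnt3a read 54.9 against 83.7, a difference of 0.61 (0.23 with spike-in centring). These signals were dim, and Wnt3a was not measured under the stricter filter on dim probes. The knockout array therefore read above the wild type array for Wnt8a, Wnt3 and Wnt3a on the 75th percentile scale. Only Wnt8a was past 2-fold, also with spike-in centring (1.45).

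The other measured ligands stayed within 2-fold. Wnt1, a midbrain and roof plate ligand, read 273 against 192 (−0.50), and Wnt7b, the nearest relative of Wnt7a, differed by −0.59 with probes at −0.28 and −0.90. The gap between Wnt7b and Wnt7a was 4.37 on the log2 scale. Wnt6 was at −0.60, or −0.09 with normexp, and its signals of 56.6 and 37.5 were dim. Wnt9a was at −0.14, and Wnt11, another polarity ligand, at 0.19, or −0.18 with spike-in centring. Wnt10b was above background in wild type alone, where it was at least 1.22-fold higher; this bound is under 2-fold. Wnt2, Wnt2b, Wnt8b, Wnt9b, Wnt10a and Wnt16 were not well above background on either array.

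Several ligand genes lie side by side in the genome. Within 100 kb of each other on mm9 were the probes of Wnt1 and Wnt10b on chromosome 15, Wnt6 and Wnt10a on chromosome 1, Wnt3 and Wnt9b on chromosome 11, and Wnt3a and Wnt9a on chromosome 11. In the first 3 of these pairs only 1 member was measured on both arrays. The Wnt3a and Wnt9a probes, 85.3 kb apart, read 0.61 and −0.14.

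**Figure D3:**
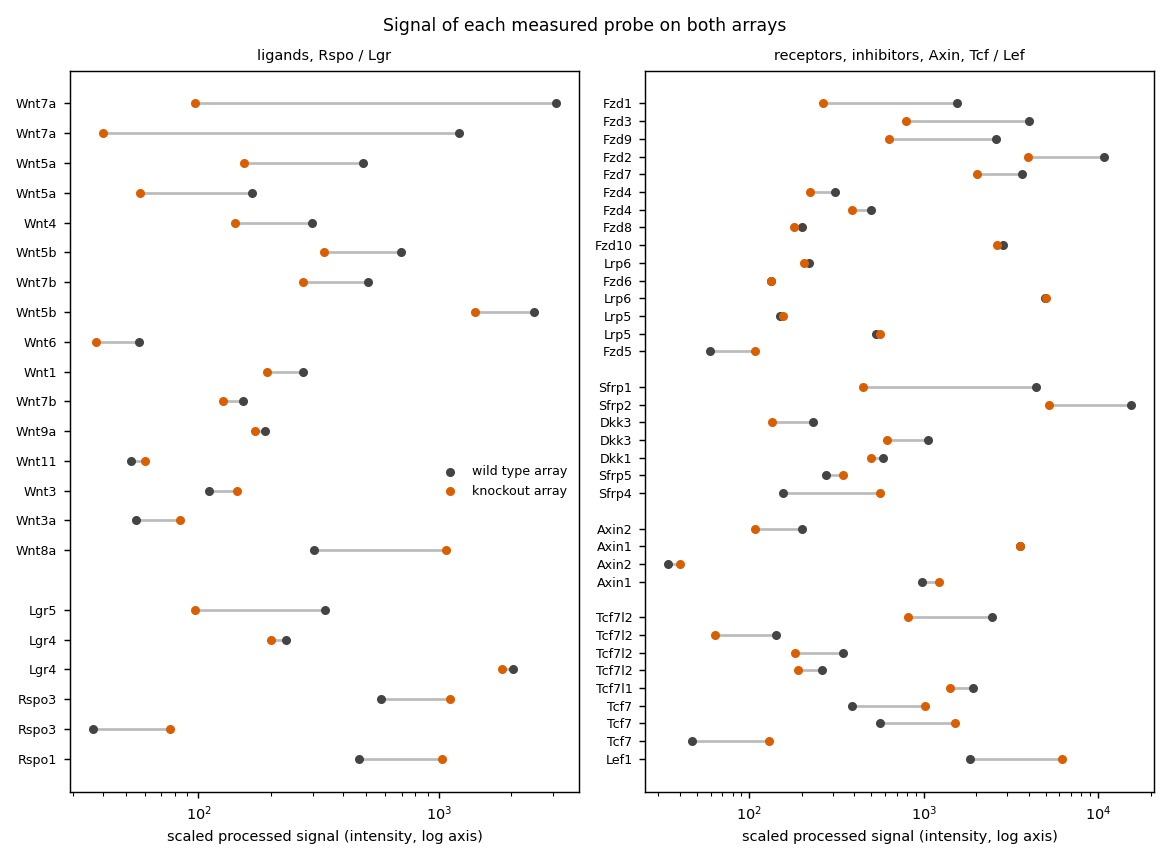
Scaled processed signal (log axis) of every probe measured on both arrays, wild type in dark grey and knockout in orange, with one row per probe, grouped by class. Rows may be compared between arrays but not with each other; the widest gaps are those of Wnt7a (1210 against 39.9 and 3076 against 96.9) and Sfrp1 (4403 against 447).

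All 12 receptor genes, the 10 frizzleds with Lrp5 and Lrp6, were measured. Of these, 4 frizzleds were lower by 2-fold or more in the knockout and 0 were higher, beside 8.82% and 11.5% of all gene names. The receptor median was −0.29 (between −0.67 and −0.19 over all settings run). Fzd1 read 1552 on the wild type array against 263 in the knockout, 5.90-fold lower. Fzd2 read 10872 against 3980, 2.73-fold lower. Fzd7, a frizzled of pluripotent cells, read 3638 against 2012 (−0.85, past 2-fold at −1.23 with spike-in centring). These 3 form a subfamily of closely related receptors, and all lay below 0 in every setting.

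Other frizzled subfamilies were split. Fzd3, a receptor used in axon tract formation and cell polarity, read 4007 on the wild type array against 787 in the knockout, 5.09-fold lower. Its relative Fzd6 read 133 on both arrays (−0.01, or 0.11 with normexp and −0.38 with spike-in centring). Fzd9, known from the developing hippocampus, read 2590 against 635, 4.08-fold lower, whereas Fzd10, a gene of the dorsal neural tube, read 2843 against 2649 (−0.10). Fzd4, the third of that subfamily, differed by −0.43 with probes at −0.37 and −0.48. One member of each of these subfamilies was thus far below 0 while the others lay within 2-fold.

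Fzd5 and Fzd8, the remaining pair, lay on opposite sides of 0. Fzd5, which takes part in eye field and endoderm development, was the frizzled that read highest in the knockout relative to wild type, at 59.8 on the wild type array against 107 in the knockout (0.84, and 0.47 with spike-in centring). Fzd5 was not measured under the stricter filter on dim probes. A further Fzd5 probe, at 22.2 against 48.0, was above background in the knockout alone. Its direction follows from that detection, so it adds no support. Fzd8 read 201 against 180 (−0.16). The shared co-receptors stayed well within 2-fold. Lrp5 was at 0.07 (−0.31 with spike-in centring, −0.03 with median centring). Lrp6 was at −0.04 (−0.42 with spike-in centring, 0.01 by its brightest probe).

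Of the 7 R-spondin and Lgr genes, 4 were measured. Rspo1 read 466 on the wild type array against 1035 in the knockout, 2.22-fold higher. Rspo3 was 2.01-fold higher, with probes at 574 against 1115 and 36.4 against 76.0. Both depended on the scaling: spike-in centring gave 0.77 for Rspo1 and 0.63 for Rspo3, and Rspo3 was also under 2-fold with quantile, loess and median scaling, normexp, the stricter filter and its brightest probe. Rspo4 was above background in the knockout alone, on 1 of 2 probes and by at least 1.96-fold, and Rspo2 on neither array. The 2 R-spondins measured on both arrays were thus both higher, with sizes close to the limit. Rspo4 has only a bound. Its direction follows from the array on which it was detected, so it adds nothing to a shared direction.

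Of the Lgr receptors, Lgr5 and Lgr4 were measured on both arrays and lay below 0, and only Lgr5 was past 2-fold. Lgr5, a stem cell marker of several epithelia and itself a Wnt target, read 336 on the wild type array against 96.7 in the knockout, 3.48-fold lower. Its log2 difference of −1.80 was −1.13 with normexp, and it was not measured under the stricter filter. Another Lgr5 probe was above background in wild type alone (41.0 against 20.1), and its direction follows from that detection, so it adds no support. Lgr4, the broadly expressed member, was at −0.17, and Lgr6 was not above background on either array.

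Of 8 secreted inhibitor genes, 6 were measured, of which 2 were lower and 1 higher by 2-fold or more in the knockout. The shares among all gene names were 8.82% lower and 11.5% higher. Sfrp1, which the ventricular zone of the neural tube expresses, read 4403 on the wild type array against 447 in the knockout, 9.84-fold lower, and held between −3.68 and −3.13 over the other settings. Its probe lies at chr8:24559438-24559497 (mm9, plus strand). Sfrp2, likewise a gene of neural progenitors, read 15500 against 5205, 2.98-fold lower. Its upstream window holds an octamer match, as does that of Lgr4, which was at −0.17. Sfrp4 went the other way, at 155 on the wild type array against 565 in the knockout, 3.64-fold higher, so that it and Sfrp1 were 5.16 apart on the log2 scale. The Sfrp genes past 2-fold thus lay on both sides of 0.

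Sfrp5, a gene of the anterior visceral endoderm, read 274 against 345 (0.34, or −0.04 with spike-in centring). Dkk1, the head-inducing inhibitor of Lrp5 and Lrp6, read 586 against 499 (−0.23). Dkk3, a divergent member that does not act as a typical Lrp blocker, differed by −0.78 and −0.77 on its 2 measured probes, and passed 2-fold with spike-in centring (−1.15). Dkk2 and Dkk4 were not well above background on either array.

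Axin1, the scaffold of the destruction complex, was within 2-fold at 0.16, with probes at 0.31 and −0.0008, and was at −0.22 with spike-in centring. Axin2, a feedback inhibitor and widely used Wnt target, was at −0.34, but its probes disagreed. The 3′ probe of Axin2 read 200 on the wild type array against 107 in the knockout (−0.90), while the 5′ probe, 8053 bases away in the genome, read 34.2 against 39.8 (0.22), close to the lowest signal called above background.

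All 4 Tcf and Lef genes were measured, and they divided by member. Lef1, an activating partner of beta-catenin and itself a Wnt target, read 1840 on the wild type array against 6220 in the knockout, 3.38-fold higher. Tcf7, which encodes TCF1, was 2.70-fold higher, and its 3 probes lay close together: they read 561 against 1514, 387 against 1011 and 46.8 against 130. Both stayed past 2-fold in every setting run, with spike-in centring at 1.38 for Lef1 and 1.05 for Tcf7. The Lef1 probe lies at chr3:130926200-130926259 (mm9, plus strand), and another Lef1 probe was above background in the knockout alone (9.30 against 37.6). The direction of that other probe follows from the array on which it was detected, so it adds no support.

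Tcf7l1, which encodes TCF3, a repressor in pluripotent cells, read 1916 against 1417 in the knockout (−0.43). Tcf7l2, which encodes TCF4, was 2.06-fold lower by the median of 4 probes, and fell under the limit with normexp (−0.61) and the stricter filter (−0.92). From the 5′ to the 3′ side its probes read −0.44, −1.17, −0.92 and −1.59. The brightest read 2448 on the wild type array against 816 in the knockout. Tcf7l2 thus lay below 0 on every probe, at a distance of 2.80 from Lef1 and 2.48 from Tcf7 on the log2 scale.

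Several probes were measured for 14 of the genes, which shows how far a value rests on 1 sequence. The outermost 3′ probe lay below the outermost 5′ probe in 7 genes and above it in 7, with a median difference of −0.02. Only Axin2 and Tcf7l2 had probes more than 1 apart on the log2 scale, and in both the 3′ probe was the lower one (by −1.12 and −1.14). The 2 Wnt7a probes differed by 0.07 and the 3 Tcf7 probes by at most 0.08. No member probe shared 25 bases with a probe of another gene name (0 of 83).

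**Figure D4:**
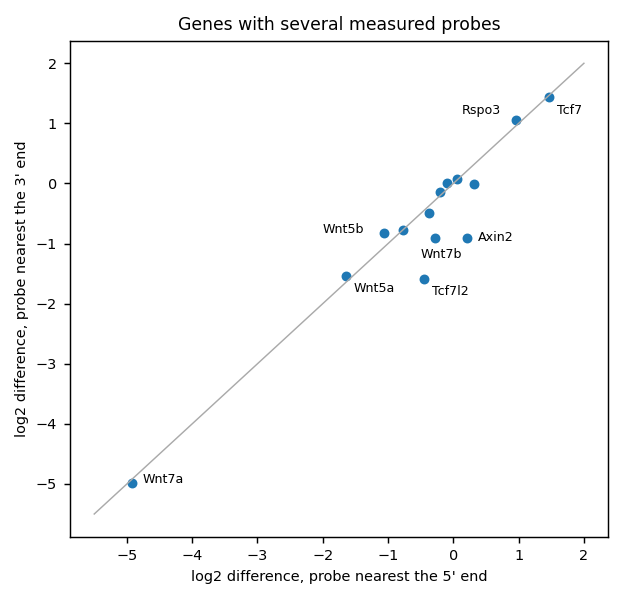
Log2 difference (knockout minus wild type) of the probe nearest the 5′ end (horizontal axis) against that of the probe nearest the 3′ end (vertical axis) for the 14 genes with several measured probes; the grey line marks equal values. Axin2, Tcf7l2 and Wnt7b fall below the line, by −1.12, −1.14 and −0.63, and most other genes lie near it.

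Other genes of the pathway were grouped into lists by role, and each list's counts stand beside 11.5% higher and 8.82% lower by 2-fold or more among all gene names. Of 6 measured genes for Wnt secretion and ligand modification, 2 were higher and 2 lower by 2-fold or more in the knockout (median −0.03). Porcn, the acyltransferase that lipidates Wnt proteins, read 1610 against 4079 (2.53-fold higher), whereas Wls, the carrier that takes them to the surface, was 2.65-fold lower. Notum, an enzyme that removes the lipid and is a Wnt target, was 3.08-fold higher, and Trabd2b, a protease that cleaves Wnt proteins, was 8.42-fold lower (log2 −3.07, or −1.87 with normexp). Porcn fell just short of 2-fold with spike-in centring (0.96). Porcn and Wls thus lay on opposite sides of 0. The other measured genes of the list, Sar1a (0.05) and Vps35 (−0.11), stayed within 2-fold.

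Of 12 measured genes among the other secreted and surface inhibitors, 4 were lower and 2 higher by 2-fold or more (median −0.85). Shisa3, which holds frizzleds inside the cell, read 505 against 44.1 (11.4-fold lower; log2 −3.52, or −2.23 with normexp), and Apcdd1, a membrane inhibitor, was 2.91-fold lower. Cer1, a secreted antagonist of Nodal, BMP and Wnt proteins, read 751 against 1885 (2.51-fold higher). Kremen2, a partner of Dkk1, read 26.4 against 58.9 (2.23-fold higher). Both were under 2-fold with spike-in centring (0.95 and 0.78). The wild type signal of Kremen2 lay close to the lowest called above background. Its log2 difference was 0.65 with normexp, and it was not measured under the stricter filter. Of 18 measured genes among the other receptors and polarity genes, 4 were lower and 3 higher by 2-fold or more (median −0.18). Celsr2 (5.77-fold; log2 −2.53, or −1.64 with normexp) and Celsr1 (3.74-fold), cadherins of planar polarity, were the lowest, and Dact2 (2.36-fold) and Prickle3 (2.11-fold) the highest, with both of the latter under 2-fold with spike-in centring (0.86 and 0.70). Celsr3 was 2.67-fold lower too, so all 3 Celsr genes lay below the limit.

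Of 21 genes of the destruction complex and cytoplasmic transducers, 18 were within 2-fold, 3 were lower and 0 higher by that much (median −0.11), where 20.3% of all gene names differed by 2-fold or more, so that these counts lay near the background. Cxxc4, a protein that binds Dishevelled, was 5.03-fold lower (log2 −2.33, or −1.73 with normexp) and Apc2, a neural relative of Apc, 2.15-fold lower by the median of its probes, which disagreed (0.84 by the brightest probe). Gsk3b, the remaining lower gene, was 2.08-fold lower (log2 −1.06). It fell short of 2-fold with normexp (−0.85) and by the mean of its probes (−0.98). Ctnnb1, which encodes beta-catenin, was at −0.14. Of 15 nuclear cofactors, 13 were within 2-fold; Tle6, a Groucho family gene, read 845 against 3415 (4.04-fold higher), and Hipk2, a kinase, was 2.78-fold lower (−0.48 with normexp; list median −0.30).

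Of 29 measured Wnt targets, 6 were higher and 4 lower by 2-fold or more in the knockout, beside 11.5% and 8.82% of all gene names, with a median of 0.22 that turned to −0.16 with spike-in centring. Cdx1, a posterior homeobox gene, read 42.2 on the wild type array against 708 in the knockout (16.8-fold higher; log2 4.07, or 2.89 with normexp), and Bmp4, a signalling ligand, was 7.26-fold higher. Sp8, a zinc finger factor, read 3054 against 880 (3.47-fold lower), and Ccnd1, which encodes cyclin D1, read 14443 against 4701 (3.07-fold lower). Sp5, a direct target in many tissues, was at 0.41 (0.03 with spike-in centring), beside Axin2 at −0.34. Members of the module that are themselves targets were split as well, with Lef1 and Tcf7 higher and Lgr5 lower.

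**Figure D5:**
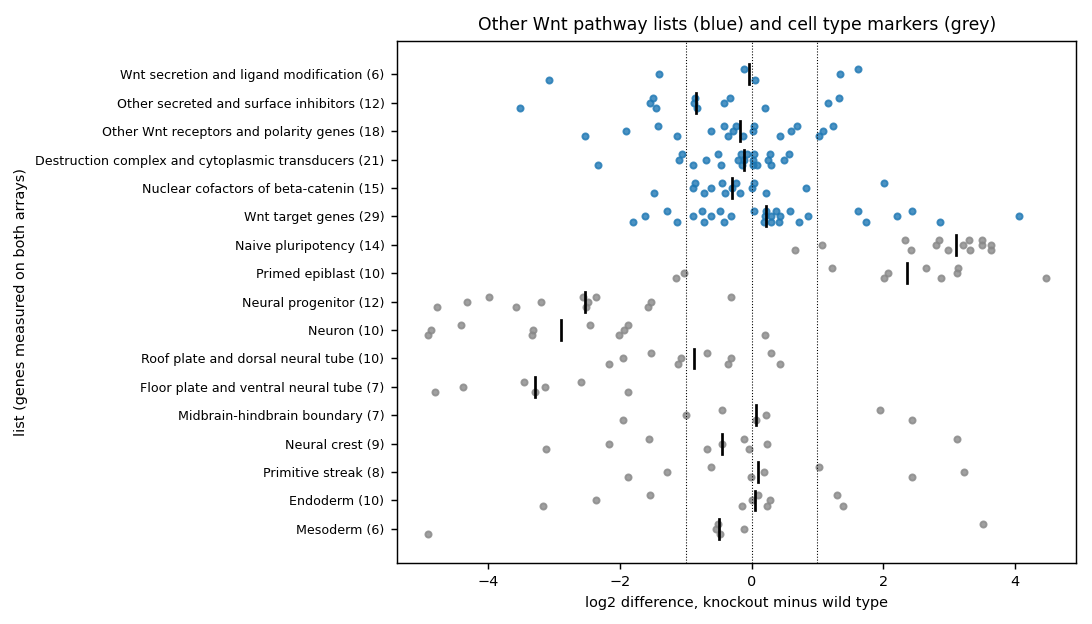
Log2 difference (knockout minus wild type, horizontal axis) of each measured gene in 6 lists of other Wnt pathway genes (blue) and 11 lists of cell type markers (grey); black bars are list medians, numbers in brackets are genes measured, and dotted lines mark 0 and 2-fold. The Wnt pathway medians lie between −0.85 and 0.22 on this scale (the target list turns negative with spike-in centring), while the naive pluripotency median is 3.10 and the floor plate median −3.29.

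Markers of cell state and cell type differed between the arrays as well. The counts of these lists stand beside 11.5% higher and 8.82% lower by 2-fold or more among all gene names. Of 14 naive pluripotency genes, 13 were higher by 2-fold or more (median 3.10), and the list's signals, averaged over the probes of each gene and summed, were 77211 on the wild type array against 465302 in the knockout. Of 10 primed epiblast genes 8 were higher and 2 lower by that much (median 2.36; sums 38725 and 105025). Of 12 markers of neural progenitors 11 were lower by that much (median −2.54, sums 135375 and 16774). So were 9 of 10 measured neuronal genes (median −2.89, sums 35076 and 26712). The neuronal exception was Stmn2, at 0.21 (−0.17 with spike-in centring). Such sums weigh bright genes most. In bulk RNA, fewer cells of a type and less RNA per cell cannot be told apart. The part of these cell states in the Wnt differences was not tested.

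Markers of the tissues that express particular Wnt genes went different ways. Their counts stand beside the same shares of all gene names, 11.5% higher and 8.82% lower. All 7 measured floor plate and ventral genes were lower by 2-fold or more (median −3.29; sums 52113 and 8740), and Nkx2-2 and Olig2 were above background in wild type alone. Of 10 measured roof plate and dorsal genes 5 were lower and 0 higher by that much (median −0.87; sums 3253 and 2031), and Gdf7 and Atoh1 were not above background on either array. For the midbrain-hindbrain boundary it was 2 lower and 2 higher of 7 (median 0.07, but −0.30 with spike-in and −0.02 with median centring; sums 3920 and 7266), and En1 was not above background on either array. For the primitive streak it was 2 lower and 3 higher of 8 (median 0.10; sums 25918 and 13270; −0.28 with spike-in centring): Eomes was 9.33-fold higher (log2 3.22, or 2.55 with normexp and 1.73 without the filter on dim probes), T lay at −0.61 (0.42 without the filter on dim probes), Mixl1 was above background in the knockout alone and Mesp1 on neither array. Neural crest markers were 3 lower and 1 higher of 9 (median −0.45; sums 1288 and 1450), endoderm markers 3 lower and 2 higher of 10 (median 0.05, but −0.33 with spike-in centring, −0.03 with quantile and −0.04 with median scaling; sums 13085 and 5678), and mesoderm markers 1 lower and 1 higher of 6 (median −0.50; sums 2335 and 6718). For Nkx2-2, Olig2 and Mixl1 the direction follows from the array of detection, so they add nothing to these counts. The part of any of these cell types in the Wnt differences was not tested. Several genes stand in more than 1 marker list, so the lists are not separate readings. Foxa2 (21970 on the wild type array against 5976 in the knockout) counts for both floor plate and primitive streak. Foxd3 counts for both primed epiblast and neural crest, and Isl1 for both neurons and mesoderm. Fgf8 (753 on the wild type array against 4072 in the knockout) counts for the midbrain-hindbrain boundary, the primitive streak and the Wnt targets. It weighs most in the knockout sum of the boundary list. Tcf15 (548 against 6286) weighs most in the knockout sum of the mesoderm list.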

How the data were processed

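Total RNA was labelled with Cy3 and hybridised to one-colour arrays, per the labels, with 1 array for wild type and 1 for KO-Linc1548 cells. The authors deposited scanner files, made with Feature Extraction 10.7.1.1 from Agilent per the submitters' processing notes. Per the file headers, the processed intensity values had spatial and multiplicative detrending within each array, and probe positions are on mm9.

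Outlier spots were left out (173 wild type, 155 knockout), spots of a probe averaged on the log2 scale, and each array centred on the 75th percentile over 56605 non-control probes (864 wild type, 652 knockout before centring). A probe was measured if at least 0.5 of its spots were well above background on both arrays and it was not saturated (31536 probes, 0 saturated). A gene measured on 1 array has a lower bound against the higher of the lowest signal called above background on the other array and its own signal there. Gene names are the array's; 71 of 83 member probes matched a RefSeq accession (GRCm38.p6 table), all 71 under the same symbol. Probes named by genome coordinates were not counted as genes.

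Members and gene lists were chosen with earlier results of these data known. Every member is named, as are the 2 highest and 2 lowest genes past 2-fold from each other pathway list. Further genes were named after their values were seen. These are Vps35, Sar1a, Celsr3, Gsk3b, Ctnnb1, Sp5, Sox1, Stmn2, Foxa2, Foxd3, Isl1, Fgf8, Tcf15, Eomes, T and genes not measured on both arrays. Alternatives were quantile, loess, spike-in (8 probes) and median scaling, normexp (limma 3.58.1, R 4.3.3, offset 50), 2 other filters, 2 probe rules and kept outliers. The steps were run on simulated arrays with planted differences and spot noise only. This checks the calculation and says nothing about variation between cultures. Python 3.11.15 was used.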

Additional observations from a re-analysis of the deposited data

How the results depend on the processing

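With 1 array per group, leaving out a replicate was not possible, and no paired analysis was possible because each group has 1 array and the labels give no replicate numbers. Of the 17 genes past 2-fold, 12 stayed past it in every setting that measured them, 5 fell short in at least 1 (Wnt5a, Wnt4, Tcf7l2, Rspo1 and Rspo3), and 0 changed sign. Of the genes within 2-fold, 3 passed it in at least 1 setting (Wnt5b, Fzd7 and Dkk3, all lower) and 7 changed sign. The count of lower genes lay between 8 and 14 and that of higher genes between 4 and 7. The median of −0.29 became −0.67 with spike-in centring, −0.11 with normexp and −0.12 without the filter on dim probes. Spike-in centring subtracts the same amount from every gene, since the 75th percentiles differed by −0.40 between arrays and the spike-in controls by −0.03, which moved the median of all gene names from 0.10 to −0.27. Without the filter all 52 genes have a value, and the 12 added ones are signals at or near background. The cause of the shift with normexp was not tested. Signal over background limits Wnt7a, Lgr5, Wnt6, Wnt3a, Wnt11, Fzd5, Wnt10b, Rspo4, the dim Axin2 probe and the 10 genes not above background on either array.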
